A study of Mus musculus with 6 samples.

Results

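The genes that make, clear, bind and sense retinoic acid were followed in forelimb bud ectoderm of mouse embryos at E10.5, with and without the transcription factor gene Sp8. The 10 genes were chosen by symbol: Aldh1a2 and Aldh1a3 for synthesis, Dhrs3 and the cytochrome genes Cyp26a1 and Cyp26b1 for clearance, Crabp1 and Crabp2 for binding in the cytoplasm, and the receptor genes Rara, Rarb and Rarg. All 10 were found among the 49452 genes of the deposited table. One group was 3 Sp8 null embryos, from intercrosses of mice heterozygous for an allele named Sp8-Cre-ERT2. The other was 3 wild-type embryos, from crosses of C57BL/6 inbred mice. The labels give C57BL6J as the background strain of both groups. Each library held the trypsin-freed ectoderm of both forelimbs of 1 embryo, the sexes were not given, and genotype and cross cannot be told apart.

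Retinoic acid is made from vitamin A by retinaldehyde dehydrogenases, diffuses between cells and binds nuclear receptors, which sit on DNA as dimers with retinoid X receptors. Enzymes of the CYP26 family oxidise it and so keep it out of tissues that must not respond to it. In the limb bud the source of retinoic acid is the trunk and proximal mesoderm, and the distal bud is known for Cyp26b1, whose loss leaves limbs severely shortened. Retinoic acid also induces several of the genes that handle it, among them Cyp26a1, Rarb and Dhrs3, through DNA sites called retinoic acid response elements.

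The promoters of the 3 genes that differed between the genotypes are shown because the first holds such an element. GGGCGG, the core of the GC box that Sp family factors are known to bind, is marked as well. RefSeq promoter windows (GRCm38.p6, 250 bases before to 50 after the start of transcription) were matched by symbol for 8 of the 10 genes, with 14 windows in all. Each line gives the part before the start that overlaps no annotated exon, written 5′ to 3′ on the strand of the gene. Capitals mark DR5 and GGGCGG, the latter also as CCGCCC where it lies on the other strand.
Cyp26a1, chr19:37697558-37697797, plus strand: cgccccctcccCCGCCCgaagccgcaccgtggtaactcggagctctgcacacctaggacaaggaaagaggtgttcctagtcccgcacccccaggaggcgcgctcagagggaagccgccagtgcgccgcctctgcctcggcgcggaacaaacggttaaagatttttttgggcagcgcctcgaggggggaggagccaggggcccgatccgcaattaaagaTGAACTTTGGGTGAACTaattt
Cyp26b1, chr6:84593909-84594060, minus strand: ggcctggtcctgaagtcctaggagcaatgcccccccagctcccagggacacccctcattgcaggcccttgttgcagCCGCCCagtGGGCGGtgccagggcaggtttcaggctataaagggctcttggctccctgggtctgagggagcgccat
Crabp1, chr9:54764498-54764747, plus strand: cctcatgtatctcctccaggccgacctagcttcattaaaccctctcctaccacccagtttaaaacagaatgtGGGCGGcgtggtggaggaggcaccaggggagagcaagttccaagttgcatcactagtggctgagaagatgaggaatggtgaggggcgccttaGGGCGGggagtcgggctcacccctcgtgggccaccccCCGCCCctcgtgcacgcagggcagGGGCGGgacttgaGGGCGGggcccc
DR5 was searched on both strands as a direct repeat of the receptor core AGGTCA with 5 bases between the copies, where each copy could also have G for its leading A, T for the base before TCA, or both. It was found in 32 of 32817 windows of this length in the genome, or 0.0975%. Among the 10 genes it was found in the windows of Cyp26a1, from 32 to 16 bases before the start (TGAACTTTGGGTGAACT, chr19:37697776-37697792, with the repeat on the minus strand), and of Rarb, from 53 to 37 bases before the start (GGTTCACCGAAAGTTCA, chr14:16575513-16575529, with the repeat on the strand of the gene). Cyp26a1 and Rarb are textbook retinoic acid targets, so these matches describe known elements. GGGCGG was found in 35.6% of windows, with 2 copies in the window of Cyp26a1, 3 in that of Cyp26b1 and 5 in that of Crabp1, of which 1, 2 and 5 lie in the printed stretches. Windows of Rara and Rarg, which were not called, hold it too, so that 5 of the 8 matched genes had a copy. A match is a run of letters, and binding was not measured here.

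Sp8 was read first as a check of the labels. Its FPKM (fragment number divided by transcript length and by the mapped fragments of each library) was 0.766, 0.460 and 1.14 in the null libraries (embryos 1 to 3) and 8.35, 10.97 and 13.5 in the wild-type libraries (embryos 1 to 3), so that each library followed its label. Relative depth, read from the step of a single read in low FPKM values, lay between 0.841 and 1.04 of that of wild-type embryo 1. Surface ectoderm markers were high in every library: 10 of 10 genes were above 1 FPKM, summing to between 707 and 926 FPKM in Sp8 null and to between 827 and 910 FPKM in wild type. Markers of neural crest and nerve, muscle precursors, endothelium and macrophages were low, with 7 of 9, 5 of 6, 6 of 7 and 7 of 7 genes under 1 FPKM in every library. Sp8 null embryo 2 stood apart in its mesenchymal transcripts. The 13 limb mesenchyme genes summed to 196 FPKM there, against 65.2 and 58.0 FPKM in Sp8 null embryos 1 and 3 and 86.4, 45.6 and 67.9 FPKM in the wild-type libraries (embryos 1 to 3), and 11 of the 13 were highest in that library. The sums hide differences among these genes. Of the 10 tested, 7 were higher and 3 lower in the nulls, with a median log2 fold change of 0.98. Lmx1b was called higher (11.9, 17.7 and 11.5 against 7.34, 5.16 and 5.35 FPKM, limma adjusted p = 0.0166). The groups also did not overlap for Twist2 and Col3a1, higher in the nulls. Pdgfra was lower in all of them (6.37, 19.5 and 6.01 against 23.8, 19.8 and 21.4 FPKM). Results that turn on it are given with and without it. Globin and other erythroid genes summed to 422 FPKM in wild-type embryo 1 and to between 11.6 and 161 FPKM elsewhere.

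In Sp8 null ectoderm both degrading enzymes fell, Cyp26a1 to 0.220 and Cyp26b1 to 0.254 of the wild-type mean, and the binding protein gene Crabp1 rose to 2.38 times it. Transcripts of Rara, Rarg, Crabp2 and Dhrs3 did not pass the test, Rarb was too low to be tested, and those of the synthesising enzymes were close to 0 in both genotypes. Of the 10 genes, 7 had at least 1 FPKM in at least 3 libraries and were tested, and 3 of these were called different at an adjusted p under 0.05 (limma, Benjamini-Hochberg over 12133 genes), 2 lower and 1 higher. Of all 12133 genes, 6.83% were called, 1.68% higher and 5.15% lower. The groups did not overlap for the same 3 members, and for 29.8% of all tested genes. The split of all calls was 204 higher and 625 lower, and it moved to 363 and 507 under upper-quartile scaling, under which the same 3 members were called in the same directions. The median log2 fold change of the 7 tested members was 0.19, and that of all tested genes -0.06.

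**Figure D1:**
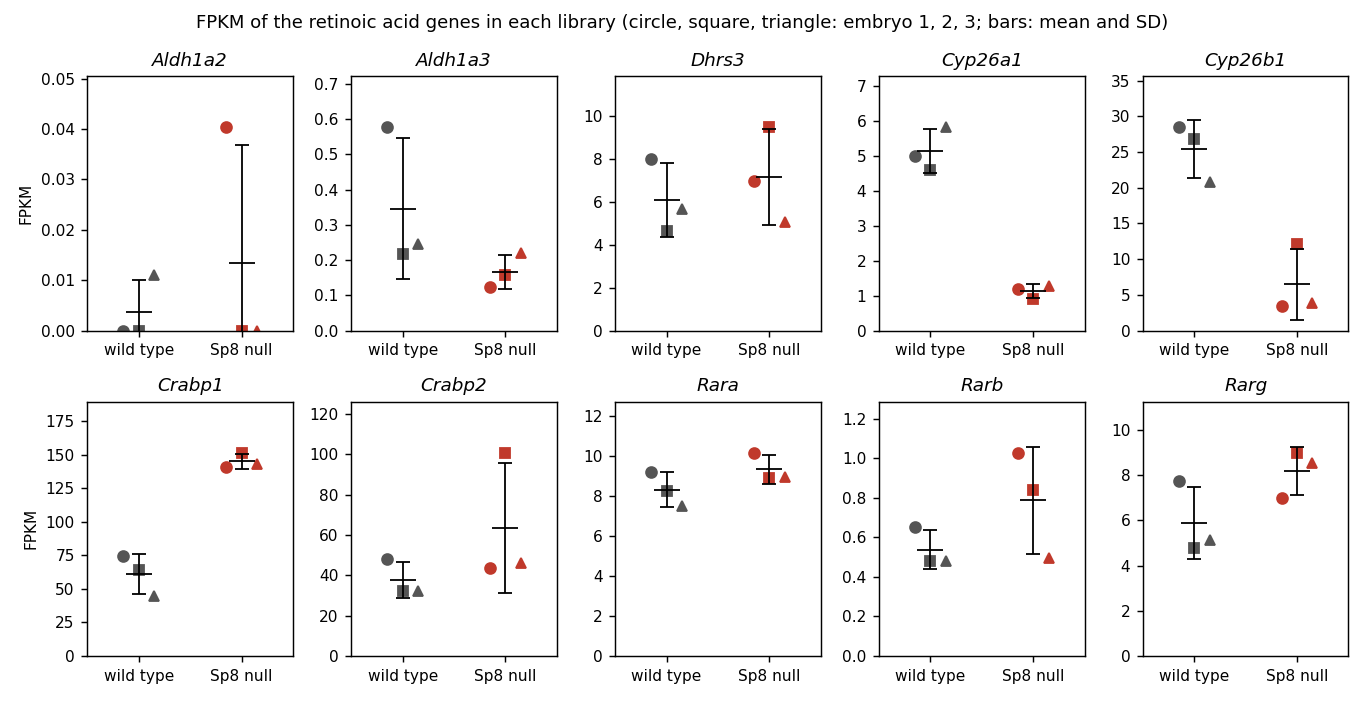
FPKM (y axis, linear from 0, with its own scale in each panel) of the 10 genes in the 3 wild-type and 3 Sp8 null libraries, with the mean and SD of each group (n = 3). The groups do not overlap for Cyp26a1, Cyp26b1 and Crabp1, and Sp8 null embryo 2 (red square) is the highest null library for Cyp26b1, Crabp1, Crabp2, Dhrs3 and Rarg.

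Levels per length differed by orders of magnitude among the 10 genes. In wild type the binding proteins led. The means were 60.9 ± 15.0 FPKM for Crabp1 and 37.5 ± 8.98 FPKM for Crabp2 (SD, n = 3), and their ranges overlapped. Next came Cyp26b1 at 25.4 ± 4.02 FPKM and overlapped neither neighbour. Rara, Dhrs3, Rarg and Cyp26a1 followed between 8.31 and 5.14 FPKM, each overlapping the next in its range. Rarb and Aldh1a3 were under 1 FPKM and overlapped, and Aldh1a2 was last. In Sp8 null ectoderm the mean of Cyp26b1 stood below those of Rara, Rarg and Dhrs3, but its range of 3.41 to 12.1 FPKM took in the ranges of all of them. Rarg and Dhrs3, which overlapped in both genotypes, changed places. Crabp1 and Crabp2 no longer overlapped in range, and Cyp26a1 overlapped with Rarb.

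The synthesising enzymes were scarcely transcribed. Aldh1a2 (ENSMUSG00000013584; GRCm38, chromosome 9, 71215789 to 71296243, plus strand), the main retinaldehyde dehydrogenase of embryonic mesoderm, was listed at 0 in 4 of the 6 libraries, at 0.0404 FPKM in Sp8 null embryo 1 and at 0.0110 FPKM in wild-type embryo 3. Aldh1a3 (ENSMUSG00000015134; chromosome 7, 66390890 to 66427517, minus strand), a dehydrogenase of the same family known from sensory placodes, was at 0.124, 0.157 and 0.220 FPKM in the null libraries (embryos 1 to 3) and at 0.577, 0.217 and 0.245 FPKM in the wild-type libraries (embryos 1 to 3). The groups overlapped by a narrow margin, and wild-type embryo 1 was the highest library. The difference in mean log2(FPKM + 1) was -0.20, with an exact permutation p of 0.2 (two-sided), where 3 libraries against 3 cannot go below 0.1. Another dehydrogenase gene of the family, Aldh1a1, was at most 0.0847 FPKM in any library.

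Of the clearance genes both CYP26 genes fell, and Dhrs3 did not pass the test. Cyp26b1 (ENSMUSG00000063415; chromosome 6, 84571414 to 84593908, minus strand), the main retinoic acid-degrading enzyme of the limb bud, was at 3.41, 12.1 and 3.81 FPKM in the null libraries (embryos 1 to 3) and at 28.5, 26.9 and 20.8 FPKM in the wild-type libraries (embryos 1 to 3). All null libraries were below all wild-type libraries, and Sp8 null embryo 2 was well above the other null libraries. The mean fell from 25.4 ± 4.02 to 6.45 ± 4.93 FPKM (SD, n = 3), a ratio of 3.94, or 7.04 without Sp8 null embryo 2. The log2 fold change of FPKM + 1 was -2.00 (SE 0.39, 95% interval -2.91 to -1.10; limma, Benjamini-Hochberg adjusted p = 0.0266).

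The null library with high mesenchymal markers was also the one with high Cyp26b1. Sp8 null embryo 2 had 3.36 times the Cyp26b1 of the mean of the other null embryos, and 3.18 times their summed mesenchymal markers. The wild-type libraries had 20.8 to 28.5 FPKM of Cyp26b1 at mesenchymal sums of 45.6 to 86.4 FPKM. The part of mesenchymal RNA in the values of Cyp26b1 was not tested. Without Sp8 null embryo 2 the fall was larger, at -2.51 on the log2 scale (SE 0.14, limma adjusted p = 0.000258). Without each other library in turn the adjusted p was over 0.05, with log2 fold changes from -2.13 to -1.72 and limma adjusted p-values of 0.0735 and 0.0604 without Sp8 null embryos 1 and 3, and of 0.0741, 0.103 and 0.0579 without wild-type embryos 1, 2 and 3. It was also over 0.05 with no filter on low values (limma adjusted p = 0.114).

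Cyp26a1 (ENSMUSG00000024987; chromosome 19, 37697798 to 37701536, plus strand), an enzyme of the same function that retinoic acid itself induces, was lower in level and steadier. It was at 1.20, 0.913 and 1.28 FPKM in the null libraries (embryos 1 to 3) and at 5.01, 4.59 and 5.82 FPKM in the wild-type libraries (embryos 1 to 3). The groups were far apart, and Sp8 null embryo 2 was the lowest library. The mean fell from 5.14 ± 0.627 to 1.13 ± 0.194 FPKM (SD, n = 3), a ratio of 4.54, with a log2 fold change of -1.53 (SE 0.12, 95% interval -1.81 to -1.24; limma adjusted p = 0.000591). It stayed called in all 14 alternatives that tested it, with log2 fold changes from -2.10 to -1.45.

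Genes of the limb ectoderm's signalling regions fell in the same libraries. The list held Fgf8, Fgf4, Fgf9, Fgf17, Dlx5, Dlx6 and Msx2 for the apical ridge, the thickened rim that signals to the bud, with Wnt3, the ventral gene En1 and the dorsal gene Wnt7a, so it is not of the ridge alone. The sum of these 10 genes was 50.4, 41.1 and 59.0 FPKM in the null libraries (embryos 1 to 3) and between 167 and 184 FPKM in wild type. Of 9 tested genes 8 were called lower by limma, beside 5.15% of all tested genes, Dlx6 being the exception (adjusted p = 0.061). Fgf4 and Fgf9 were under 1 FPKM in all null libraries. They passed the filter through the wild-type libraries alone, which favoured a call as lower. None of the 10 was listed at 0 in every library, and the lowest values were those of Fgf4, at 0.0589, 0.0327 and 0.0162 FPKM in the null embryos. The part of these regions in the fall of the CYP26 genes was not tested. In bulk ectoderm, fewer cells of a type and less RNA per cell cannot be told apart.

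The sum of both CYP26 transcripts was 4.61, 13.1 and 5.09 FPKM in the null libraries (embryos 1 to 3) and 33.5, 31.5 and 26.7 FPKM in the wild-type libraries (embryos 1 to 3), a ratio of means of 4.03, or 6.30 without Sp8 null embryo 2. Cyp26b1 made up 82.9 ± 4.08% of this sum in wild type and 80.6 ± 10.8% in Sp8 null (SD, n = 3). The share by library was 73.99, 93.01 and 74.81% in the null libraries (embryos 1 to 3). In the wild-type libraries (embryos 1 to 3) it was 85.04, 85.42 and 78.17%. Sp8 null embryos 1 and 3 lay below all wild-type libraries and Sp8 null embryo 2 above them, so the closeness of the means rests on that embryo. The remaining CYP26 gene, Cyp26c1, was at most 0.242 FPKM. Dhrs3 (ENSMUSG00000066026; chromosome 4, 144892827 to 144928209, plus strand) encodes the reductase that returns retinaldehyde to retinol and so limits synthesis. It was at 6.96, 9.48 and 5.06 FPKM in the null libraries (embryos 1 to 3) and at 7.99, 4.64 and 5.65 FPKM in the wild-type libraries (embryos 1 to 3). The groups overlapped throughout, with the highest value in Sp8 null embryo 2. The log2 fold change was 0.19 (95% interval -0.35 to 0.74; limma adjusted p = 0.658), and it was -0.0036 without Sp8 null embryo 2.

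**Figure D2:**
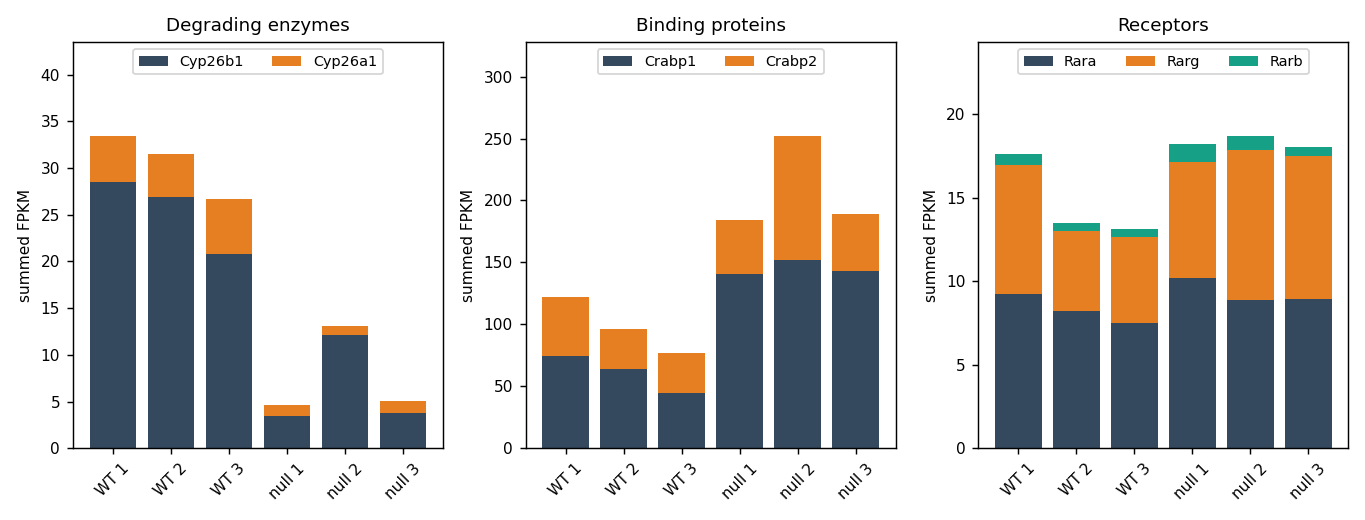
Summed FPKM (y axes, from 0) of the degrading enzymes, the binding proteins and the receptors in each library, with each gene as a part of the bar. The CYP26 sum is 26.7 FPKM or more in wild type and at most 13.1 FPKM in Sp8 null, and the CRABP and receptor sums are higher in all null libraries than in any wild-type library, the receptor sums at 18.0 to 18.7 against 13.1 to 17.6 FPKM.

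The cellular retinoic acid-binding proteins hold retinoic acid in the cytoplasm. CRABP1 is known for carrying it to degrading enzymes and CRABP2 for delivering it to the receptors. Crabp1 (ENSMUSG00000032291; chromosome 9, 54764748 to 54773110, plus strand) was at 141, 152 and 143 FPKM in the null libraries (embryos 1 to 3) and at 74.1, 63.8 and 44.7 FPKM in the wild-type libraries (embryos 1 to 3). The null libraries were all above the wild-type libraries and close to each other. The mean rose from 60.9 ± 15.0 to 145 ± 5.72 FPKM (SD, n = 3), a ratio of 2.38, with a log2 fold change of 1.27 (SE 0.17, 95% interval 0.88 to 1.66; limma adjusted p = 0.00597). Sp8 null embryo 2 had 1.07 times the mean of the other null embryos, and the log2 fold change without it was 1.24 (limma adjusted p = 0.018). The mesenchyme genes Lmx1b, Twist2 and Col3a1 were likewise higher in all null libraries than in any wild-type library, and Pdgfra was lower. Of the 10 tested mesenchyme genes, 7 were higher and 3 lower in the nulls. The part of mesenchymal RNA in the rise of Crabp1 was not tested. Crabp1 stayed called in all 15 alternatives, between 1.07 and 1.43, with limma adjusted p-values from 0.000945 to 0.0449.

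Crabp2 (ENSMUSG00000004885; chromosome 3, 87948666 to 87953376, plus strand) was at 43.8, 101 and 45.9 FPKM in the null libraries (embryos 1 to 3) and at 47.9, 32.4 and 32.2 FPKM in the wild-type libraries (embryos 1 to 3). Sp8 null embryo 2 was the highest library, at 2.25 times the mean of the other null embryos, and those overlapped with wild-type embryo 1. The log2 fold change was 0.66 (95% interval -0.08 to 1.40; limma adjusted p = 0.256), and 0.28 without Sp8 null embryo 2 (limma adjusted p = 0.434). The part of mesenchymal RNA in this value was not tested. Crabp1 took 61.7 ± 4.21% of the summed CRABP transcripts in wild type and 70.7 ± 9.20% in Sp8 null (SD, n = 3). By library this share was 76.2, 60.0 and 75.7% in the null libraries (embryos 1 to 3) and 60.8, 66.3 and 58.1% in the wild-type libraries (embryos 1 to 3), so the groups overlapped through Sp8 null embryo 2.

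**Figure D3:**
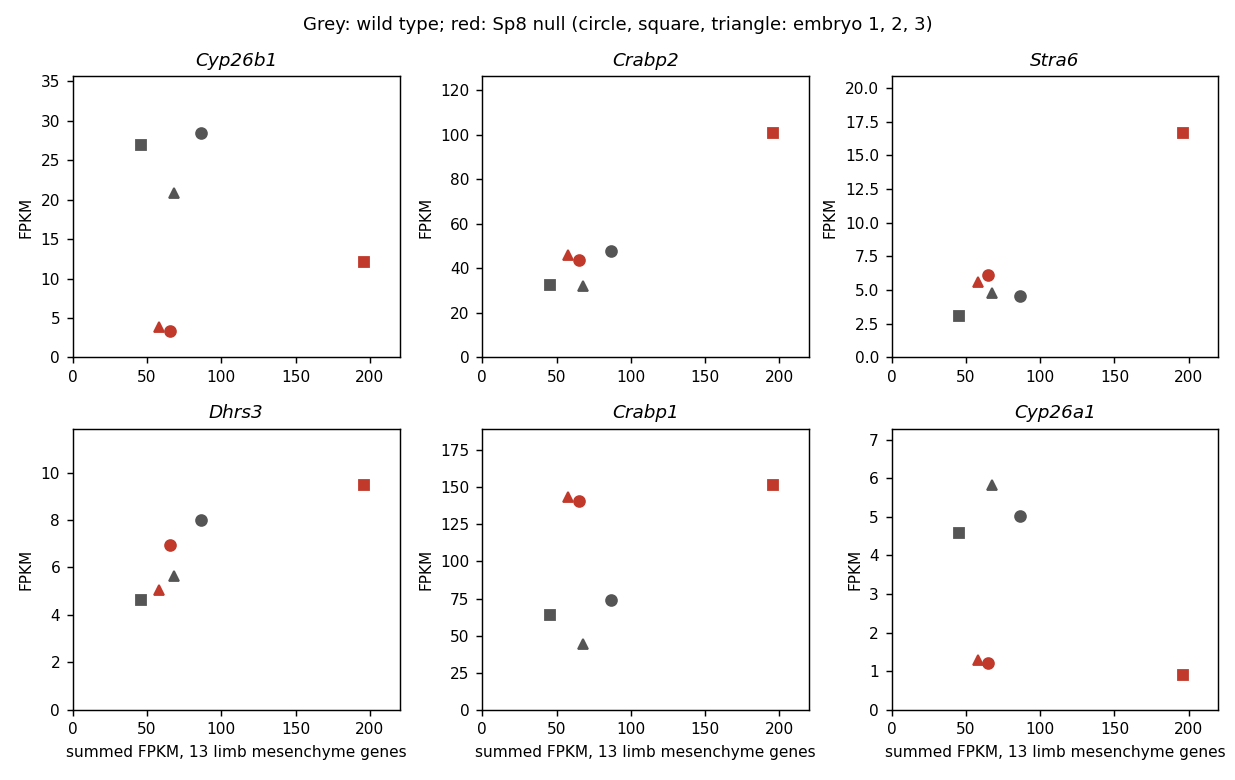
FPKM of 6 retinoid genes (y axes, from 0) against the summed FPKM of 13 limb mesenchyme genes (x axis) in each library. Sp8 null embryo 2, the red square at 196 FPKM on the x axis, is the highest library for Crabp2, Stra6, Dhrs3 and Crabp1, the highest null library for Cyp26b1 and the lowest library for Cyp26a1.

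All receptor transcripts were detected in all 6 libraries. Rara and Rarg did not pass the test, and Rarb was not tested in the fit. Rara (ENSMUSG00000037992; chromosome 11, 98927818 to 98974942, plus strand), the broadly expressed receptor, was at 10.2, 8.87 and 8.95 FPKM in the null libraries (embryos 1 to 3) and at 9.21, 8.22 and 7.50 FPKM in the wild-type libraries (embryos 1 to 3). The groups overlapped, and the log2 fold change was 0.15 (95% interval -0.08 to 0.38; limma adjusted p = 0.405). Rarg (ENSMUSG00000001288; chromosome 15, 102234938 to 102257517, minus strand), a receptor known from skin and cartilage precursors, was at 7.00, 9.0 and 8.56 FPKM in the null libraries (embryos 1 to 3) and at 7.73, 4.79 and 5.15 FPKM in the wild-type libraries (embryos 1 to 3). Its groups overlapped through wild-type embryo 1. The log2 fold change was 0.43 (95% interval 0.04 to 0.83; limma unadjusted p = 0.0362, adjusted p = 0.174). With each library left out in turn it ranged from 0.32 to 0.62. The lowest was without wild-type embryo 2 (limma adjusted p = 0.439) and the highest without wild-type embryo 1 (limma adjusted p = 0.0549).

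Rarb (ENSMUSG00000017491; chromosome 14, 16430839 to 16819156, minus strand), the receptor gene that retinoic acid induces, had at least 1 FPKM in 1 library only. It was at 1.03, 0.841 and 0.493 FPKM in the null libraries (embryos 1 to 3) and at 0.652, 0.480 and 0.479 FPKM in the wild-type libraries (embryos 1 to 3). Sp8 null embryo 3 lay within the wild-type range. The difference in mean log2(FPKM + 1) was 0.21 (two-sided exact permutation p = 0.2). Exons of Rarb overlap those of Top2b and Gm48162 on the other strand, and the use of strand in counting is not given in the sources used here, so reads from these genes cannot be told apart there. Of the summed receptor transcripts in wild type, Rara took 56.8 ± 4.31%, Rarg 39.6 ± 4.24% and Rarb 3.64 ± 0.0722% (SD, n = 3). In Sp8 null the shares were 51.0 ± 4.38%, 44.7 ± 5.41% and 4.30 ± 1.47% (SD, n = 3), and the ranges over embryos overlapped for each receptor.

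**Figure D4:**
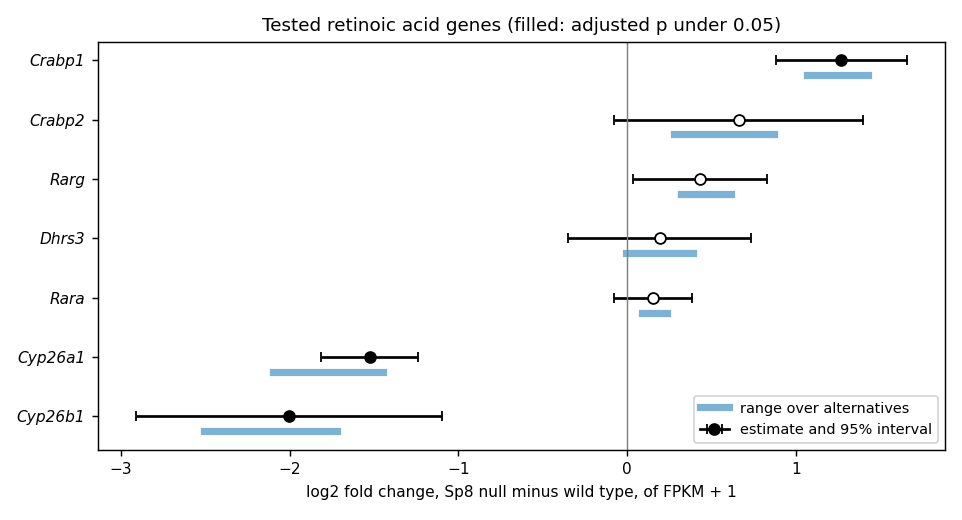
Log2 fold change of FPKM + 1 (x axis, Sp8 null minus wild type) for the 7 tested genes, with the 95% interval in black and the range over the alternatives in blue. Cyp26b1 (-2.00), Cyp26a1 (-1.53) and Crabp1 (1.27) are filled as called, and the intervals of Crabp2, Dhrs3 and Rara include 0.

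The authors' deposited table gave its own comparison on another scale of counts. For Cyp26a1 the fold change in the authors' deposited table was -3.7, for Crabp1 2.2 and for Rarg 1.47, each with a p-value listed as 0. For Cyp26b1 the authors' deposited table gave -1.68 with a p-value of 0.001434, although the ratio of its group means was 3.85. In the authors' deposited table Rara (1.15, p = 0.023515) and Rarb (1.45, p = 0.01039) were also higher in Sp8 null, and Crabp2 was at 1.37 (p = 0.0581), Dhrs3 at 1.14 (p = 0.412001) and Aldh1a3 at -1.21 (p = 0.245337). Whether p was adjusted in the authors' deposited table is not given in the sources used here. For Rara and Rarg the sign was the same in the FPKM fit, which called neither, and Rarb was not in that fit.

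Genes with a like pattern were searched for the 3 called members among the other 12132 tested genes, by the root mean square distance between centred log2(FPKM + 1) values over the 6 libraries. Genes near a called member tend to share its contrast by construction, so this is a description. Nearest to Cyp26a1 were Eogt (distance 0.0827), an enzyme gene that adds N-acetylglucosamine to secreted EGF domains, Carmil1 (0.107), a regulator of actin capping, and Spry1 (0.109), a feedback inhibitor of FGF signalling. Nearest to Crabp1 were Adamts17 (0.141), a matrix protease gene, the metallothionein gene Mt1 (0.146) and the transcription factor gene Sox9 (0.176). Cyp26b1 had farther neighbours: Cdh2 (0.264), which encodes N-cadherin, the matrix protease gene Adamts3 (0.377) and the small RNA gene Scarna8 (0.391). Scarna8 was at 0, 2.75 and 0 FPKM in the null libraries (embryos 1 to 3) and at 2.80, 6.27 and 2.60 FPKM in the wild-type libraries (embryos 1 to 3). Its groups overlapped and it was not called (limma adjusted p = 0.125). Cdh2 was at 1.10, 3.68 and 0.946 FPKM in the null libraries (embryos 1 to 3), with embryo 2 again the highest null library, and at 9.14, 7.06 and 9.59 FPKM in the wild-type libraries (embryos 1 to 3).

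The supply of the substrate was read from 32 genes for retinol uptake, storage and oxidation, of which 11 could be tested. None was called by limma, and 4 had an unadjusted p under 0.05 (36.4%, beside 24% of all tested genes). The median log2 fold change was -0.02. Of the 32, 21 were under 1 FPKM in every library and 5 were listed at 0 throughout. The most abundant were Adh5, a broadly expressed alcohol dehydrogenase, at 49.0 ± 2.65 FPKM in the nulls against 54.2 ± 3.64 FPKM in wild type, and Dhrs4, a retinal reductase, at 13.6 ± 1.91 and 14.3 ± 0.635 FPKM (SD, n = 3). The next 2 genes, Rdh10 and Stra6, are named after their values were seen. Rdh10, the retinol dehydrogenase that controls the first step of embryonic synthesis, was at 11.3, 11.1 and 13.6 FPKM in the null libraries (embryos 1 to 3) and at 8.08, 9.27 and 6.75 FPKM in the wild-type libraries (embryos 1 to 3). Its groups did not overlap, which held for 29.8% of all tested genes (8.63% higher and 21.1% lower), and its log2 fold change was 0.53 (limma adjusted p = 0.0506). It was called in 4 of the alternatives: median-of-ratios and upper-quartile scaling, a mean of at least 5 FPKM, and protein-coding genes only.

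Stra6, the membrane receptor for retinol uptake, was at 6.15, 16.7 and 5.58 FPKM in the null libraries (embryos 1 to 3) and at 4.55, 3.06 and 4.78 FPKM in the wild-type libraries (embryos 1 to 3). Its groups did not overlap either, but the value in Sp8 null embryo 2 was 2.84 times the mean of the other null embryos, where the mesenchymal markers were also high, and their part was not tested (log2 fold change 0.89, limma adjusted p = 0.186, and 0.44 without that embryo).

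Partners and coregulators of the receptors were read from 22 genes. Of these, 20 were tested and 1 was called (5%, beside 6.83% of all tested genes), and the median log2 fold change was 0.05. Rxra, the main retinoid X receptor here, was at 13.8 ± 1.73 FPKM in the nulls against 13.2 ± 1.72 FPKM in wild type (SD, n = 3), and Ncor1, a corepressor and the most abundant of the list, at 89.4 ± 1.89 and 86.3 ± 4.67 FPKM. Fabp5, a lipid-binding protein known for passing retinoic acid to another nuclear receptor, was the called gene. It was at 70.9, 60.1 and 76.6 FPKM in the null libraries (embryos 1 to 3) and at 99.2, 107 and 87.8 FPKM in the wild-type libraries (embryos 1 to 3). All null libraries were lower, with a log2 fold change of -0.50 (SE 0.11, limma adjusted p = 0.0403). The call did not hold without Sp8 null embryo 1 or 2 (limma adjusted p = 0.0918 and 0.0877) or without wild-type embryo 1, 2 or 3 (0.112, 0.152 and 0.0521). It was also lost with no filter on low values (limma adjusted p = 0.125), with the replicate block (0.129), with a term for the number that opens each library name (0.0673) and with no mean-variance trend (0.0625).

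The last list held 33 genes known to respond to retinoic acid in some tissue, many of which answer to other signals too. Of these, 15 were tested, 2 were called higher and 1 lower, and the median log2 fold change was 0.23. Zfp703, a zinc finger repressor, was at 20.9, 17.1 and 17.5 FPKM in the null libraries (embryos 1 to 3) and at 7.08, 9.86 and 8.96 FPKM in the wild-type libraries (embryos 1 to 3). The groups were well apart (log2 fold change 1.02, SE 0.13, limma adjusted p = 0.00535). Btg2, an antiproliferative gene that p53 and cell stress also induce, rose to 6.55 ± 0.564 FPKM from 3.34 ± 0.128 FPKM in wild type (SD, n = 3), a log2 fold change of 0.80 (limma adjusted p = 0.00383). Dusp6, a phosphatase gene best known as a target of FGF signalling, fell to 6.68 ± 0.858 FPKM from 11.4 ± 1.40 FPKM in wild type (SD, n = 3), a log2 fold change of -0.70 (limma adjusted p = 0.0168), a call that did not hold without wild-type embryo 1 or 2 (limma adjusted p = 0.0541 and 0.0681) or with no filter on low values (0.0716). Among the most abundant of the list was the proximal limb gene Meis2, at 67.7 ± 6.92 FPKM in the nulls against 57.7 ± 6.11 FPKM in wild type (SD, n = 3; limma adjusted p = 0.238). Meis1 was at 35.9 ± 6.11 FPKM in the nulls against 41.7 ± 3.80 FPKM in wild type (SD, n = 3; limma adjusted p = 0.359). The 3 called genes of 15 tested went both ways, beside 6.83% called over all genes.

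**Figure D5:**
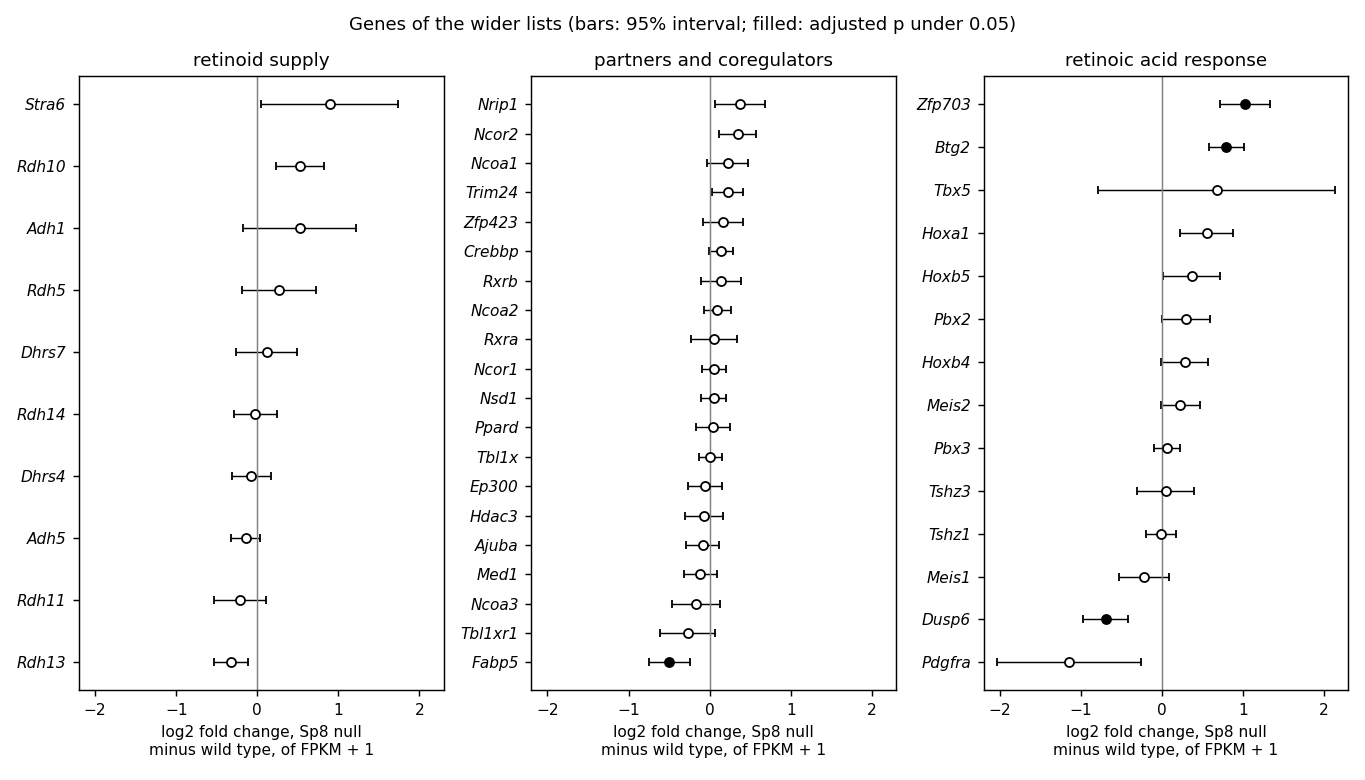
Log2 fold change of FPKM + 1 (x axes, Sp8 null minus wild type) with its 95% interval for 10 of the 11 tested genes of the supply list, the 20 of the partner list and 14 of the 15 of the response list. Filled points passed an adjusted p of 0.05: none in the supply list, Fabp5 in the partner list, and Zfp703, Btg2 and Dusp6 in the response list.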

How the data were processed

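Polyadenylated RNA of 6 libraries (TruSeq v2 kit, per the labels) was given by the authors as FPKM per gene, with Ensembl build 87 gene models per the file headers. The submitters' processing notes name GRCm38, FastQC, SAMtools, TopHat2, Cufflinks and DESeq2, with no role or version. The authors' deposited table also held group means (a signal on a scale of counts), a signed fold score and a p-value, whose test is not given in the sources used here. No whole reads were recovered, so depth is known in relative terms only and no counting interval is given.

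FPKM was analysed as log2(FPKM + 1) for the 12133 genes that reached 1 FPKM in 3 or more libraries, with limma 3.58.1 in R 4.3.3 (genotype as the only term, mean-variance trend, two-sided). A gene was called at a Benjamini-Hochberg adjusted p under 0.05 over all tested genes. Fold changes on this scale understate the change of low genes. All members had the status OK in every library. Replicates are separate embryos.

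Members, lists and tests were chosen with earlier results of these data known. Beside the members, genes were named by rule: Sp8, called genes and the 2 most abundant of each list, and the 3 genes nearest in pattern to each called member; 2 genes of these lists are counted but not reported here by name; others are marked as chosen after their values were seen, as are Aldh1a1, Cyp26c1, Rxra, Meis1 and Fgf4. Positions are from GENCODE M21 on GRCm38. Alternatives were another pseudocount (0.1), other filters, median-of-ratios and upper-quartile scaling, protein-coding genes only, no trend, the leading number of the sample name (4 or 5, meaning not stated) as a covariate, the embryo number as a block, and each library left out.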

Additional observations from a re-analysis of the deposited data

How the results depend on the processing

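The 7 tested members gave 104 values under the alternatives. Direction and side of the threshold were kept in 97, 6 of Cyp26b1 were no longer past the threshold, and 1 changed sign: Dhrs3, at -0.0036 without Sp8 null embryo 2 (range with one library left out -0.0036 to 0.3919). The number of members called was 3 and stayed between 2 and 3, from 2 to 3 with one library left out. Over all genes 829 were called, against 342 without the filter, 328 with the replicate block and, with one library left out, from 213 to 665 (213 without wild-type embryo 2, 665 without Sp8 null embryo 3 and from 363 to 447 without each other library), in fits with fewer samples. The other alternatives gave 545 to 1084. Of the 3 wider lists together 4 genes were called: 2 with no filter, 7 under upper-quartile scaling, 7 with protein-coding genes only, and from 2 to 4 with one library left out, with 2 without wild-type embryo 1 or 2. The median log2 fold change of all tested genes was -0.06, and 0.03 under upper-quartile scaling. The cause of these changes was not tested.

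Whether embryos of the same number were paired is not given in the sources used here. The leading number of the sample name was the same for embryos of the same number. Across genes, their deviations from the group means correlated at -0.16, -0.14 and -0.07. With 3 libraries per group these values cannot decide whether the embryos were paired. With the replicate block the same 3 members were called, with limma adjusted p-values of 0.00238 for Cyp26a1, 0.0231 for Cyp26b1 and 0.0106 for Crabp1. Low FPKM limits what can be said of Aldh1a2, Aldh1a3 and Rarb.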
